A study of Mus musculus with 120 samples.

Results

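Chromosome 13 of the MSM mouse was present in this panel as a centromeric part and a telomeric part, each in a strain of its own, and the livers of these strains are described here. The strain B6-Chr13CMSM (the C strain) and the strain B6-Chr13TMSM (the T strain) were chosen by their strain labels. Each was measured in 2 males with 2 arrays per male, which makes 8 of the 120 arrays of the series. MSM, the donor, was measured in 2 males, as were C57BL/6J (B6), the control strain and host background, and each of 26 other consomic strains, which carry other MSM chromosomes, chromosome parts or the MSM mitochondrial genome on B6. All mice were males aged 10 weeks and fasted for 4 h before the liver was taken. The C and T letters are the only statement of where each MSM part lies, and its boundaries are not given in the labels. With 2 males per strain, the number of males limits the precision of every value. The labels do not say whether males of a strain shared a cage, litter or day.

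A consomic strain carries a chromosome, or a part of one, from a donor strain on the background of a host. A liver transcript whose gene lies in the donor part can differ because of donor sequence near the gene, and a transcript from elsewhere in the genome can differ through products of the donor part. Mouse chromosome 13 carries the Akr1c cluster of aldo-keto reductases, which reduce steroids and other carbonyl compounds, near its centromere. It also carries the betaine-homocysteine methyltransferases Bhmt and Bhmt2 and, towards the telomere, Nnt, the mitochondrial transhydrogenase that makes NADPH. C57BL/6J mice are known to carry a defective Nnt allele.

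The promoters of a pair of Akr1c genes, with Akr1c19 between them, are shown because their transcripts differed in opposite directions between the strains, as given below, while their RefSeq promoters are nearly the same. Each run covers 250 bases before and 50 after the annotated start on GRCm38.p6, 5′ to 3′ on the strand of the gene. Akr1c12 is at chr13:4279350-4279649 on the minus strand, and Akr1c13 is at chr13:4190937-4191236 on the plus strand. Capitals mark the bases that differ between them in a global alignment.
Akr1c12: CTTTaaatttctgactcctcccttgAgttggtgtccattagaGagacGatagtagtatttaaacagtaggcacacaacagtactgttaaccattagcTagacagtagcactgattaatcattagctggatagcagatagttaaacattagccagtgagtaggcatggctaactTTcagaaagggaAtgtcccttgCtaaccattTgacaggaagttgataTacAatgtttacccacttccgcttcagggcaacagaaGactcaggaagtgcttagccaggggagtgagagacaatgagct
Akr1c13: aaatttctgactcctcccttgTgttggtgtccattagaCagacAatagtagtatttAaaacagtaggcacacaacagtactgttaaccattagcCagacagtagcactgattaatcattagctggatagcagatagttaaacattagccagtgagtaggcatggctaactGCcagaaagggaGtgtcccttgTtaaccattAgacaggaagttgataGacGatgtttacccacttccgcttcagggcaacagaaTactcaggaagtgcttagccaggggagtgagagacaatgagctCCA
The alignment held 284 identical columns of 304 (93.4%). The promoter of Akr1c18, the gene of the cluster with the most significant difference between the strains, shared 46.4% of aligned columns with Akr1c12, beside 45.6% between Akr1c18 and the unrelated Tmem14c. It is at chr13:4150597-4150896 on the minus strand.
Akr1c18: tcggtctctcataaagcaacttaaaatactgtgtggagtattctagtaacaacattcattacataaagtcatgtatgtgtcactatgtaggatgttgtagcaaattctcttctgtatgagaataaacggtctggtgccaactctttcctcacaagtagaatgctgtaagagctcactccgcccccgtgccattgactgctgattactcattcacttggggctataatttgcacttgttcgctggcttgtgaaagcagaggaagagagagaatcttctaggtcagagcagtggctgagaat
Neither the TATA box letters TATAAA nor the CCAAT box letters CCAAT were found in these 3 windows on either strand, against 13.6% and 37.4% of all 32851 RefSeq promoters of the table. These are the reference bases of C57BL/6J, and MSM sequence was not used here.

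The comparison of the C strain with the T strain asks which liver transcripts follow which part of the chromosome. In all, 21 of 11949 tested genes differed at an adjusted p below 0.05 (0.176%), by limma with Benjamini-Hochberg adjustment. Of these, 17 were among the 421 tested genes of chromosome 13, where 8 were higher and 9 lower in the C strain. The other 4 were among 11483 genes elsewhere, 3 higher and 1 lower. At an unadjusted p below 0.05 the share was 20.7% on chromosome 13 and 3.1% elsewhere. In each of the 21 genes both C males lay on one side of both T males. Under quantile normalization 11 of the 21 calls held, and those of Rpl41, Rps26, Akr1c13, Isca1, Gm7969, Arsb, Mrps36, Nln, 4833420G17Rik and Cyb5r3 were lost. With only the C, T, B6 and MSM strains fitted, 5 held (Akr1c18, Akr1c12, Tmem14c, Gm7969 and Mtx3).

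**Figure D1:**
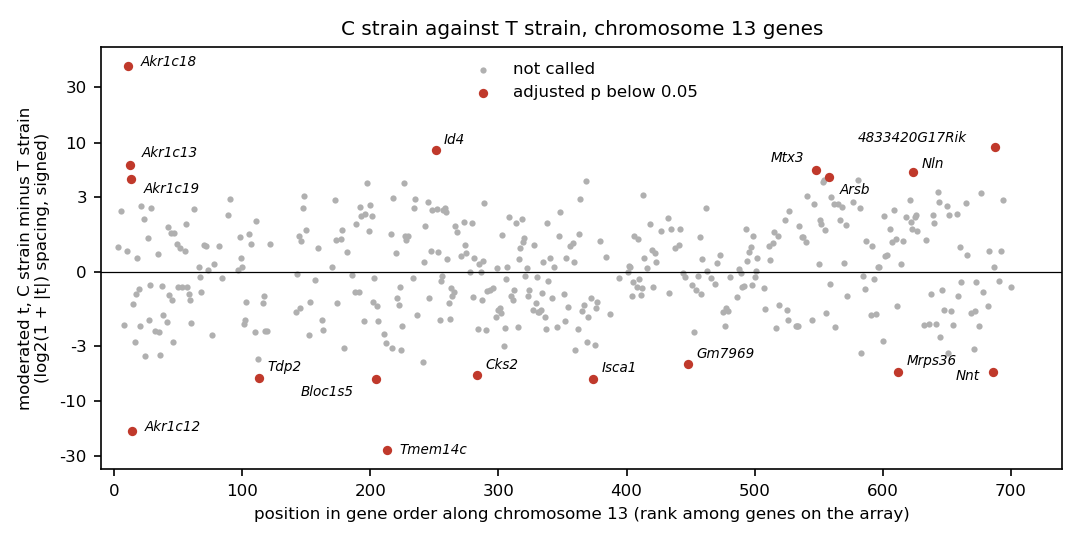
Moderated t of the C strain minus the T strain (vertical axis, signed and spaced by the log2 of 1 plus the size of t) for the 421 tested chromosome 13 genes, against the rank of the gene among the 702 chromosome 13 genes on the array (horizontal axis). Red points are the 17 genes with an adjusted p below 0.05, and the furthest from 0 are Akr1c18 above and Tmem14c and Akr1c12 below.

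Values are as deposited, on a log scale taken as base 2 from their range, since no label or header states the base. On this log2 scale the spread between males of a strain was narrow and differed greatly between genes (residual SD 1.02e-05 at the 10th percentile of genes and 0.000806 at the 90th). A difference between strains on this scale is not a log2 fold change and its size is not comparable between genes, so each difference is read against its own SE and against MSM. A gene entered the test if its level was above the median of the whole table, about 7.42, in 2 or more of the 60 males. Positions along chromosome 13 are ranks among the 702 genes of that chromosome on the array, ordered by GRCm38.p6. All 7 hepatocyte markers on the array (such as albumin) exceeded the median in every male. Between the C and T strains 0 genes were called in the 11 marker lists for hepatocytes and other cell types.

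The Akr1c cluster at the centromeric end differed in the C strain. Akr1c18, the enzyme known for inactivating progesterone (position 11), had levels of 8.04 and 8.07 in the C males, against 7.73 and 7.74 in the T males. MSM males stood at 8.17 and 8.15 and B6 males at 7.74 and 7.74. The C males thus lay near MSM and far from the T, B6 and all 26 other strains, whose means were within −0.00684 and 0.0059 of their common mean. The difference of C from T was 0.319 ± 0.00715 (SE; limma adjusted p = 2.47e-25), and the C strain stood 0.751 of the way from the other strains to MSM.

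Akr1c12 (position 14) went the other way. It had levels of 8.21 and 8.20 in the C males, against 8.37 and 8.38 in the T males. MSM males were at 8.18 and 8.17, and B6 males at 8.38 and 8.38. It fell by 0.17 ± 0.00918 in C against T (adjusted p = 1.46e-14) and carried 0.872 of the MSM difference. Between these genes lie Akr1c13 and Akr1c19, both higher in C and both with C and MSM as the highest of the 30 strains. Akr1c13 deviated from the mean of the 26 strains by 0.00138 and 0.00133 in the C males, against 0.000237 and 5.52e-05 in the T males, a difference of 0.00121 ± 0.000194 (adjusted p = 0.000932). Akr1c19 deviated by 0.00863 and 0.0101 in the C males, against 0.00256 and 0.000671 in the T males, a difference of 0.00774 ± 0.00167 (adjusted p = 0.0362). The Akr1c13 call was lost without T male 2 (adjusted p = 0.0515). That of Akr1c19 was lost without C male 1 (0.191), C male 2 (0.357), T male 1 (0.163) or T male 2 (0.577).

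Of the 9 tested genes of the Akr1c list, 3 rose and 1 fell in C against T, beside 11 and 10 over all 11949 genes. Among the 421 tested genes of chromosome 13, where the whole list lies, 8 rose and 9 fell. Akr1c6, an abundant hydroxysteroid dehydrogenase of the liver next to Akr1c12 in gene order, did not pass (−4.85e-05 ± 6e-05, adjusted p = 0.999), nor did Akr1c14, which metabolises dihydrotestosterone (0.00119 ± 0.00249, adjusted p = 0.999). These genes are close paralogs and each of the 4 called ones has 1 probe set on the array. Cross-hybridisation between paralogs was not examined, nor was whether MSM sequence variants lie under any probe of this array, which was designed on a reference sequence.

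Further along the centromeric side, Tmem14c, a mitochondrial inner membrane protein needed for haem synthesis (position 213), had levels of 7.85 and 7.85 in the C males, against 8.09 and 8.08 in the T males. MSM males stood at 7.85 and 7.86, and B6 males at 8.09 and 8.09. The C males thus lay at the MSM level, and the difference of C from T was −0.239 ± 0.00901 (adjusted p = 6.9e-19), 1.03 of the MSM difference by the strain mean. Id4, an inhibitor of basic helix-loop-helix transcription factors (position 251), deviated from the 26 strains by 0.00129 and 0.000821 in the C males, against 6.5e-05 and 9.61e-05 in the T males. It was higher in C by 0.000974 ± 0.000113 (adjusted p = 2.85e-06). Its other probe sets, dimmer and below the median in every male, also gave calls over all probe sets, at 0.0529 ± 0.00602 and 0.0139 ± 0.0016. All 3 probe sets of Id4 were thus higher in C, with sizes that differed between them.

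Tdp2, a phosphodiesterase that repairs topoisomerase-linked DNA ends (position 113), deviated by −0.0142 and −0.0104 in the C males, against 0.00464 and −0.00154 in the T males (−0.0138 ± 0.00224, adjusted p = 0.00094). Bloc1s5, a subunit of the BLOC-1 complex of lysosome-related organelles (position 204), deviated by −0.00575 and −0.00513 in the C males, against 0.00197 and 0.000375 in the T males (−0.00661 ± 0.00103, adjusted p = 0.000731). Both genes were thus lower in C, with MSM the lowest and C the second lowest of the 30 strains. The Tdp2 call was lost without C male 1 (adjusted p = 0.107) or T male 1 (0.188), and that of Bloc1s5 without T male 1 (0.0789).

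**Figure D2:**
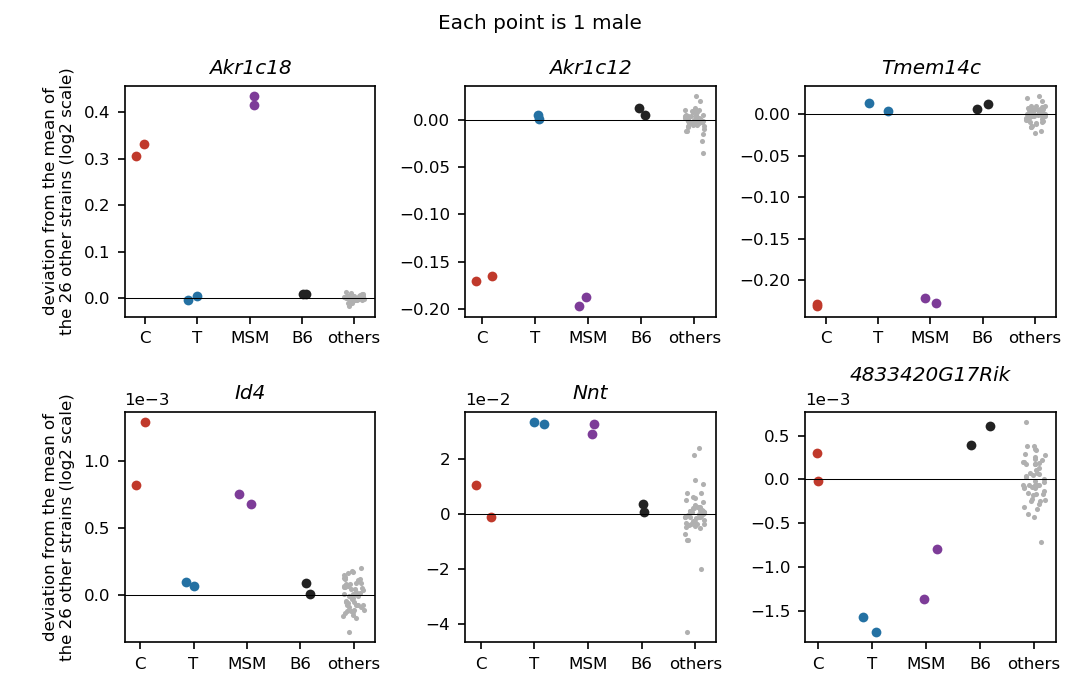
Deviation of each male (1 point) from the mean of the 26 other consomic strains on the deposited log2 scale (vertical axes, scaled per gene) for 6 chromosome 13 genes. The columns hold the 2 males of the C, T, MSM and B6 strains and the 52 males of the 26 other strains; Akr1c18, Akr1c12, Tmem14c and Id4 have the C males beside MSM, and Nnt and 4833420G17Rik have the T males beside MSM.

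At the telomeric end it was the T strain that stood near MSM. Nnt (position 686) had levels of 8.10 and 8.09 in the C males, against 8.12 and 8.12 in the T males. MSM males stood at 8.12 and 8.12 and B6 males at 8.09 and 8.09, so that the C males lay near B6 and the T males at the MSM level. Means of the 26 other strains spread over −0.0315 to 0.0228 around their common mean; the T males, at 0.0328 and 0.0336, lay above that range and the C males, at 0.0107 and −0.00085, inside it. The C strain was lower than T by −0.0283 ± 0.00524 (adjusted p = 0.00596), and T was higher than B6 by 0.0309 ± 0.00524 (adjusted p = 0.00546). The other probe set above the median gave −0.0638 ± 0.0134 for C against T (adjusted p = 0.029 over all probe sets). The Nnt call was lost without C male 2 (adjusted p = 0.267), T male 1 (0.119) or T male 2 (0.125).

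4833420G17Rik, a gene of unassigned name (position 688), deviated by 0.0003 and −1.7e-05 in the C males, against −0.00174 and −0.00158 in the T males. MSM males stood at −0.00137 and −0.00079, and B6 males at 0.000607 and 0.00039. The T strain was the lowest of the 30, and the difference of C from T was 0.0018 ± 0.000195 (adjusted p = 7.11e-07). Other probe sets of this gene above the median gave 0.00487 ± 0.000816 and 0.00334 ± 0.00048, both called.

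The other 4 called genes past position 540 were again nearer to MSM in T than in C. Mtx3, a metaxin of the mitochondrial outer membrane (position 548), deviated by 0.000704 and 0.000722 in the C males, against −0.00196 and −0.00174 in the T males (0.00256 ± 0.00046, adjusted p = 0.00442). Arsb, the lysosomal arylsulfatase that degrades dermatan and chondroitin sulfate (position 558), deviated by −9.74e-05 and −4.03e-05 in the C males, against −0.00181 and −0.00214 in the T males (0.00191 ± 0.000397, adjusted p = 0.0263). Nln, a metallopeptidase that cleaves neurotensin (position 624), deviated by 6.76e-05 and 0.000633 in the C males, against −0.00238 and −0.00215 in the T males (0.00261 ± 0.000491, adjusted p = 0.00709). These genes were all higher in C and at 0.892 to 1.1 of the MSM difference in T. Mrps36, named as a mitochondrial ribosomal protein (position 612), deviated by −0.000138 and 2.51e-05 in the C males, against 0.000518 and 0.000384 in the T males (−0.000508 ± 9.36e-05, adjusted p = 0.00596).

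The calls of Akr1c18, Akr1c12, Tmem14c, Id4 and 4833420G17Rik passed with each of the 4 males left out in turn, and those of these 4 genes did not. Mtx3 was lost without C male 1 (adjusted p = 0.087), C male 2 (0.0604), T male 1 (0.152) or T male 2 (0.0515). Arsb was lost without C male 1 (0.282), C male 2 (0.25), T male 1 (0.163) or T male 2 (0.476). Nln was lost without C male 2 (0.233), T male 1 (0.19) or T male 2 (0.0794). Mrps36 was lost without C male 1 (0.378) or T male 1 (0.322).

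Between positions 253 and 540 there were 3 calls, all lower in C. Cks2, a subunit of cyclin-dependent kinases (position 283), deviated by −0.0196 and −0.0129 in the C males, against 0.0056 and 0.000116 in the T males (−0.0191 ± 0.00327, adjusted p = 0.00212). Its second probe set gave −0.0208 ± 0.00339. Isca1, a mitochondrial iron-sulfur cluster assembly factor (position 374), deviated by −0.000146 and −0.000127 in the C males, against 5.09e-05 and 2.82e-05 in the T males (−0.000176 ± 2.79e-05, adjusted p = 0.000811). For both, C was the lowest of the 30 strains and MSM the second lowest. Gm7969, a predicted gene (position 448), was different: it deviated by −0.0236 and −0.0221 in the C males, against 0.0408 and 0.0427 in the T males, with MSM males at −0.134 and −0.139 and B6 males at 0.0256 and 0.024. Means of the 26 other strains spread over −0.052 to 0.0428 for Gm7969, so that both the C and the T males lay inside the range of strains without MSM chromosome 13. Cks2 was lost without C male 1 (0.231) or T male 1 (0.188), Isca1 without T male 1 (0.0698), and Gm7969 without any 1 of the 4 males (0.25 to 0.439: 0.439 without C male 1, 0.25 without C male 2, 0.398 without T male 1 and 0.398 without T male 2).

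B6 showed which strain had moved for most of the genes called in C against T. Cks2, Gm7969, Mtx3 and, outside chromosome 13, Cyb5r3 were called against B6 in neither strain. Against B6, 14 of 11949 genes were called in the C strain (0.117%), 11 of them on chromosome 13 (5 higher, 6 lower). Those 11 were the 8 genes named above up to position 251, Isca1, Ssr1 and Fam8a1. Ssr1, a subunit of the translocon-associated protein complex (position 197), was higher in C than in B6 by 0.00246 ± 0.000451 (adjusted p = 0.00711), while C against T gave 0.00191 ± 0.000451 (adjusted p = 0.0843). Fam8a1, a partner of the ubiquitin ligase Hrd1 (position 241), was lower in C than in B6 by −0.000406 ± 5.99e-05 (adjusted p = 0.000343), while C against T had an adjusted p of 0.0703. All 11 lay at or before position 374. The 3 called outside chromosome 13, Rpl41, Rps26 and Mid1, are described below.

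In the T strain 7 of 11949 genes were called against B6 (0.0586%), and all 7 were on chromosome 13, at positions 554 to 688. They were Bhmt, Arsb, Nln and 4833420G17Rik, which were lower, and Mrps36, Arl15 and Nnt, which were higher. Bhmt, the abundant liver enzyme that remethylates homocysteine with betaine (position 554), deviated by −0.00192 and 8.26e-05 in the C males, against −0.00351 and −0.00492 in the T males. MSM males were at −0.00389 and −0.00472 and B6 males at 0.000602 and 0.00045. T was lower than B6 by −0.00474 ± 0.000739 (adjusted p = 0.00237) and stood at 0.979 of the MSM difference, while C against T gave 0.0033 ± 0.000739 (adjusted p = 0.0532), just outside the threshold. Arl15, a small GTPase (position 671), was higher in T than in B6 by 0.00136 ± 0.000241 (adjusted p = 0.00848), while C against T gave −0.000778 ± 0.000241 (adjusted p = 0.634). It was not among the genes that differed in MSM from the 26 strains (7.37e-05 ± 0.000174, adjusted p = 0.753). The comparisons of C and of T with B6 share the B6 males.

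Against the mean of the 27 strains without MSM chromosome 13 (B6 and the 26), the C strain had 27 calls of 11949 genes (0.226%), 20 of them on chromosome 13, and the T strain had 14 (0.117%), all on chromosome 13. Genes called there and not against B6 included, in C, the mitochondrial desuccinylase Sirt5 (0.000591 ± 0.000102, adjusted p = 0.00185), the quinone reductase Nqo2 (0.00181 ± 0.000339, adjusted p = 0.00581), the thiopurine methyltransferase Tpmt (0.00611 ± 0.00135, adjusted p = 0.0404) and Cks2. In T they included Mtx3, the ribosome biogenesis factor Nsa2 (−0.00169 ± 0.000303, adjusted p = 0.00506), Gpbp1 (0.00102 ± 0.000171, adjusted p = 0.00205) and Mccc2, a subunit of the leucine-degrading methylcrotonyl-CoA carboxylase (0.000398 ± 7.89e-05, adjusted p = 0.0196). Nqo2, Tpmt and Mccc2 were not among the genes that differed in MSM from the 26 strains. For Mccc2 the MSM difference was 1.91e-05.

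Genes were then described in gene order by the share of the MSM difference that each strain carried. MSM differed from the mean of the 26 other strains in 184 of the 421 tested chromosome 13 genes (43.7%), beside 42.3% of all 11949. The share is the distance of a strain from the 26 strains divided by the distance of MSM from them, so that 0 is the level of the other strains and 1 that of MSM. In the C strain 51 of the 184 genes had a share over 0.5, and in the T strain 26 did. The single division of the gene order that put most genes on the side given by the strain name lay after position 252 for the C strain, with 138 of 184 genes placed (75%), and after position 540 for the T strain, with 162 placed (88%). With no division, so that no gene was held to be MSM-like, 133 (72.3%) were placed in C and 158 (85.9%) in T, so the divisions placed few more genes. They also moved with the setting: with a share of 0.7 they lay after positions 14 and 602. Under quantile normalization they placed 343 of 356 genes in C and 350 in T, against 342 and 350 with no division, so that in T the division placed no more genes than none.

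Up to position 252 the median share of 63 such genes was 0.515 in C (0.56 and 0.434 in its males) and 0.03 in T (−0.0246 and 0.0973). Between the divisions, 83 genes had a median of 0.0649 in C and −0.0157 in T. Past position 540, 38 genes had a median of −0.0758 in C and 0.677 in T (0.468 and 0.623 in the T males). The divisions were chosen on these same shares, which can raise the C median of the first block and the T median of the last, so the medians are a description only. In the middle block the C shares were uneven. Of the 16 middle genes with a C share over 0.5, 15 lay at positions 257 to 375, among them Cks2 and Isca1, and the other was Acot12 at 537. The sign of C minus T was that of the MSM difference in 48 of the first 63 genes, 55 of the middle 83 and 7 of the last 38.

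Of the 22 genes with an MSM adjusted p below 1e-6, a subset chosen after seeing the data, 20 were placed in C and 21 in T, against 14 and 16 with no division. Of the first 10, all up to position 251, 8 had a C share over 0.5, and 0 had a T share over 0.5. Of the 7 past position 540, 6 had a T share over 0.5, and 0 had a C share over 0.5. The 5 between had none over 0.5 in either strain, and among them Gkap1 (position 360) had a C share of 0.449. Exceptions in C were Idi1 (position 24, share −0.446) and the phosphate transporter family gene Slc17a2 (position 100, share 0.147), and in T it was Enc1 (position 583, share 0.295). The shares of Slc17a2 and Enc1 are those of their brightest probe set. For Slc17a2 a dimmer one above the median gave −0.0522 in C minus T, with MSM at −0.0952 against the 26 strains. For Enc1 a dimmer one above the median gave −0.0127, with MSM at 0.0234 (not called in C against T, adjusted p = 0.206 over all probe sets by limma).

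**Figure D3:**
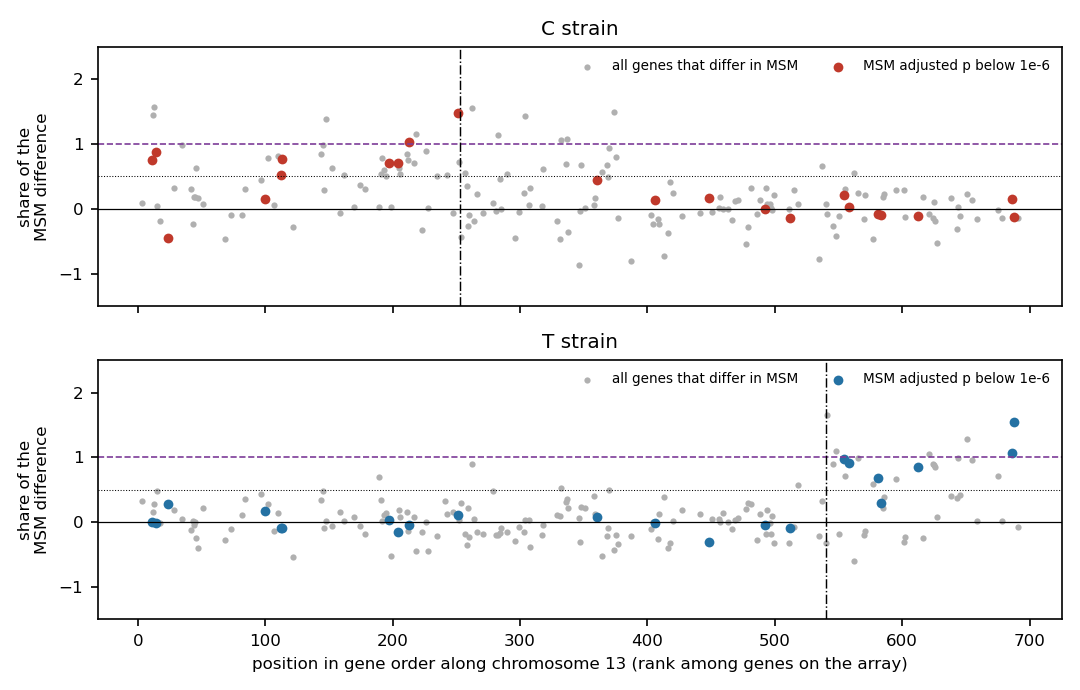
Share of the MSM difference carried by the C strain (top) and the T strain (bottom) for each of the 184 chromosome 13 genes that differ in MSM, against gene order; 0 is the level of the 26 other strains and the dashed line at 1 is MSM. Coloured points are the 22 genes with an MSM adjusted p below 1e-6, the dotted line is the share of 0.5, and vertical lines are the divisions after positions 252 and 540. In C, 34 of the 51 shares over 0.5 lie left of the first line, 16 between the lines and 1 past the second; in T, 21 of 26 lie past the second line, 4 between and 1 left of the first. Also, 1 gene of C lies outside the axis.

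Where a gene had several probe sets, the one with the highest mean was used, and less abundant ones sometimes showed what it did not. Bhmt2, which remethylates homocysteine with S-methylmethionine (position 555), had a kept probe set that did not pass (0.000249 ± 0.000217, adjusted p = 0.999). A dimmer one gave 0.0513 ± 0.00524 for C against T (adjusted p = 2.44e-07 over all probe sets), with MSM at −0.0693 against the 26 strains. The acyl-CoA hydrolase Acot12 (position 537) likewise had 0.000348 ± 0.000379 in the kept probe set and 0.0089 ± 0.00116 in a dimmer one (adjusted p = 3.11e-05), with MSM at 0.00104 and −0.00367. For Slc17a2 the dimmer probe set gave −0.0522 ± 0.00746 (adjusted p = 0.000155), with MSM at −0.0952 against the 26 strains. Of the 21 called genes, 12 had further probe sets, and 23 of those 25 probe sets had the sign of the kept one. When all probe sets above the filter were tested, other genes called on chromosome 13 were Bicd2, Tmem167, Tnpo1, Nsa2, Bhmt and Ssr1.

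The mitochondrial genes of chromosome 13 numbered 13 on the list, of which 0 rose and 3 fell in C against T (Isca1, Mrps36 and Nnt), beside 0.176% of all tested genes and 4.04% (17 of 421) of those on chromosome 13 called in either direction. The list does not hold the mitochondrial Tmem14c, lower in C, or Mtx3, higher in C. As given above, Isca1 was at the lower, MSM-like level in C, and Mrps36 and Nnt were at the higher, MSM-like level in T. Of 3 betaine and one-carbon enzymes 0 were called in C against T and 1 fell in T against B6 (Bhmt), a comparison that called 0.0586% of all genes and 1.66% (7 of 421) of those on chromosome 13. The oxidative enzyme of the same pathway, Dmgdh (position 556), gave −0.000301 ± 0.000258 (adjusted p = 0.999). Other liver genes of the chromosome also missed the threshold, all with an adjusted p of 0.999: the clotting factor F12 (−9.09e-05 ± 8.74e-05), the gluconeogenic fructose bisphosphatase Fbp1 (1.24e-06 ± 1.04e-05), the lysosomal protease Ctsl (5.89e-05 ± 0.000198), the phospholipase Gpld1 (−0.000184 ± 0.00032), the scaffold Iqgap2 (6.88e-05 ± 5.06e-05), the cytokine receptor subunit Il6st (−0.00428 ± 0.00254) and Mccc2 (−0.000286 ± 0.00011). F13a1 and Rsl1 did not exceed the median in any male and were not tested. Of the 26 gene lists, 23 had no called member in C against T.

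Outside chromosome 13 the C strain differed from T in 4 genes. The genes on chromosome 10 were the ribosomal protein genes Rps26 and Rpl41. Rps26 deviated from the 26 strains by 0.000339 and 0.000292 in the C males, against −2.18e-05 and 9.26e-06 in the T males, with MSM males at 7.66e-05 and 3.43e-05. The difference was 0.000322 ± 4.36e-05 (adjusted p = 5.55e-05), and leaving out each of the 4 C and T males in turn kept the adjusted p between 0.000755 and 0.00893. Rpl41 deviated by 0.000759 and 0.000825 in the C males, against −3.38e-05 and −0.000222 in the T males (0.00092 ± 0.000178, adjusted p = 0.0102). Its call was lost without C male 1 (0.118), C male 2 (0.182), T male 1 (0.0789) or T male 2 (0.356). Under quantile normalization the calls of both Rps26 and Rpl41 were lost. For both genes C was the highest of the 30 strains and MSM the fourth highest.

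Rpl41 and Rps26 lie at positions 839 and 842 in the gene order of chromosome 10, with Pa2g4, a growth-regulated RNA-binding protein, and Erbb3, a receptor tyrosine kinase, between them. This window was examined after the calls were seen. The 4 genes have 9 probe sets that passed the filter, and in 9 of 9 the C strain was the highest of the 30 strains. Rpl41 and Rps26 bound this block and were called for being higher in C. Rpl41 and Pa2g4 each have several of the 9 probe sets, so these are not independent. The count is thus a description only, given without the share over all genes. Among the 6 flanking genes that passed, C was the highest in 1 of 8 probe sets. Pa2g4 gave 0.00227 ± 0.000739 in its kept probe set (adjusted p = 0.775), and 2 of its dimmer probe sets were called, at 0.000976 ± 0.000152 (adjusted p = 0.000674 over all probe sets) and 0.000262 ± 4.17e-05 (adjusted p = 0.000839). Erbb3 gave 0.00116 ± 0.000563 for C against T (adjusted p = 0.999) and was called against the 27 strains (0.0021 ± 0.000406, adjusted p = 0.00822). MSM was the lowest of the 30 strains for Erbb3, and for Pa2g4 it was the second highest in the kept probe set and the lowest in another.

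**Figure D4:**
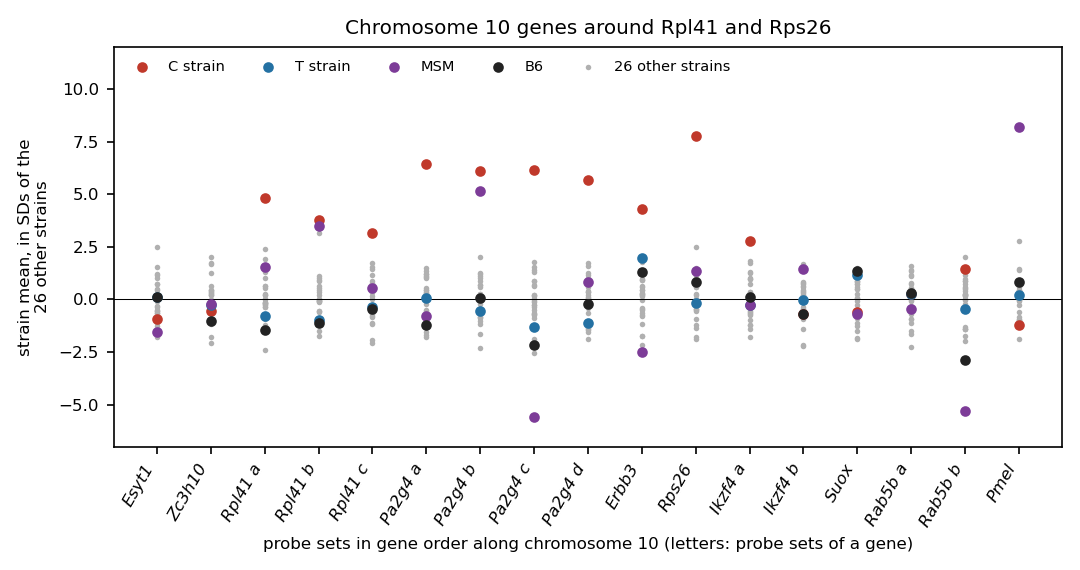
Mean of each strain, in SDs of the 26 other strains (vertical axis), for the 17 probe sets that passed the filter in the chromosome 10 window, in gene order (horizontal axis; letters stand for probe sets of a gene). Red points are the C strain, which is highest in all 9 probe sets of Rpl41, Pa2g4, Erbb3 and Rps26, and grey points are the 26 other strains.

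The other calls elsewhere were Cyb5r3 and Mid1. Cyb5r3, the reductase of cytochrome b5 (chromosome 15), deviated by −0.000538 and −0.000218 in the C males, against 0.000152 and 4.13e-05 in the T males (−0.000475 ± 0.000102, adjusted p = 0.0362). The single arrays of C and T overlapped for this gene alone among the 21, and the call was lost without C male 1 (adjusted p = 1), T male 1 (0.84) or T male 2 (0.143). Mid1, an E3 ubiquitin ligase gene (chromosome X), deviated by 0.000581 and 0.00252 in the C males, against −0.000529 and −2.56e-05 in the T males (0.00183 ± 0.000365, adjusted p = 0.0153). Its C males differed widely, and the call was lost without C male 2 (0.779), T male 1 (0.649) or T male 2 (0.0515). The T strain had 0 genes called outside chromosome 13 against B6 by limma, with 410 at an unadjusted p below 0.05 (3.57% of 11483), and 4 when single arrays were fitted with the male as a random block.

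Cholesterol synthesis genes had lower values in the C strain than in the T strain, without passing the test. The enzymes of this pathway turn acetyl-CoA into sterols and are known to be regulated together by SREBP2. Of the 20 tested genes of the list 0 were called in C against T by limma (smallest adjusted p = 0.135), 13 had an unadjusted p below 0.05, and the median moderated t was −2.64, beside −0.0124 over all tested genes. In 17 of the 20 both C males were below both T males, beside 15% of all 11949 genes. In 14 of the 20 both C males were below both B6 males, beside 20.3% of all genes, and 0 of 20 were called against B6 (smallest adjusted p = 0.492, 10 at an unadjusted p below 0.05).

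Both strains stood towards opposite ends of the panel. C ranked 22 or further down of 30 strains in 19 of the 20 genes (the exception was Ebp, at 12). T ranked 2 to 10 in 19 of 20 (the exception was Hmgcs1, at 30). These genes are known to be regulated together and were read in the same 2 males per strain, so the 20 ranks are not independent.

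The males of the C strain were unequal in this list. C male 2 lay within the range of the 26 strains' means in 20 of 20 genes and C male 1 in 10. Those means are each of 2 males, so a single male leaves their range more easily than a strain mean would. Msmo1, a sterol C4-methyl oxidase, deviated by −0.0465 and −0.00138 in the C males, against 0.0266 and 0.0262 in the T males (−0.0504 ± 0.0125, adjusted p = 0.135). Fdps, farnesyl diphosphate synthase, deviated by −0.0358 and −0.00134 in the C males, against 0.0183 and 0.0191 in the T males (−0.0373 ± 0.00944, adjusted p = 0.154). Idi1, isopentenyl diphosphate isomerase, lies past the Akr1c cluster on chromosome 13 (position 24) and deviated by −0.0541 and −0.0126 in the C males, against 0.0158 and 0.0254 in the T males (−0.054 ± 0.0142, adjusted p = 0.217). Its MSM males were the opposite, at 0.0725 and 0.0771, and C was the lowest and MSM the highest of the 30 strains. Among all 60 males, the lowest value belonged to C male 1 in 4 of the 20 genes and to C male 2 in 0. Over all 11949 genes it belonged to C male 1 in 174 and to C male 2 in 117.

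Summed over the 20 genes, the deposited levels were 183.24 and 183.43 in the C males, 183.55 and 183.56 in the T males, 183.68 and 183.69 in the MSM males and 183.51 and 183.53 in the B6 males. With single arrays fitted and the male as a random block, Msmo1 (adjusted p = 1.34e-05), Nsdhl (3.79e-05), Fdps (4.26e-05), Idi1 (0.000636), Sc5d (0.00129), Dhcr7 (0.00347), Lss (0.00508) and Fdft1 (0.0134) passed, all lower in C. That fit takes 1 consensus correlation of 0.325 between the arrays of a male for all genes, whereas the C males of these genes differed widely, so these p-values may be too small. Fatty acid and triglyceride synthesis, a list that is regulated in part by the related SREBP1, had 18 tested genes, of which 0 were called (smallest adjusted p = 0.923). In 8 of the 18 both C males were below both T males, beside 15% of all 11949 genes. The median t was −0.909, beside −0.0124 over all tested genes. Hmgcs1 (position 692), which makes the HMG-CoA of this pathway, was the exception in direction, at 0.00318 ± 0.0069 for C against T (adjusted p = 0.999), with T the lowest of the 30 strains. The Kupffer cell markers of the list, 12 tested and 0 called, had summed levels of 103.77 and 103.81 in the C males and 103.74 and 103.76 in the T males. The sums were 103.72 and 103.73 in the B6 males and 103.58 and 103.59 in the MSM males. In 8 of the 12 both C males were above both T males, beside 1862 of all 11949 genes, and 0 of the 12 were lower in C than in T. Their part in the result was not tested. In whole liver, a change in the number of cells of a type and a change in RNA per cell cannot be told apart.

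**Figure D5:**
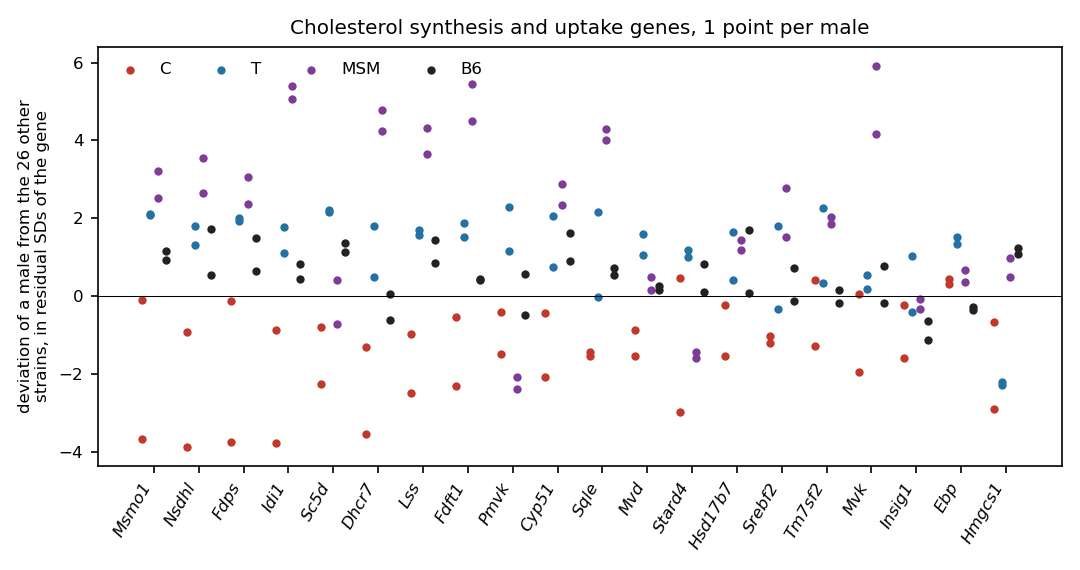
Deviation of each male of the C, T, MSM and B6 strains from the mean of the 26 other strains, in residual SDs of the gene (vertical axis), for the 20 cholesterol synthesis and uptake genes in order of their C minus T p (horizontal axis). The 2 C males lie below both T males in 17 of the 20 genes, and 1 C male is the lower by a wide margin in the first 4.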

How the data were processed

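Liver RNA was measured on short-oligonucleotide arrays, 2 per male, 2 males per strain and 30 strains. Groups follow the strain label and males the animal number in the title. The authors deposited 1 log2 value per probe set and array, and the log scale is inferred from values of 6.34 to 14.82. No label or header says how they summarised and normalized the probes, or the base of the log.

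Of 45037 probe sets, 34945 carried 1 gene symbol, 932 several and 9160 none, by the platform annotation. Of these 34945, 34741 matched GRCm38.p6 by gene ID. Each of 18194 genes was represented by its brightest probe set on average. After averaging both arrays of an animal, limma 3.58.1 (R 4.3.3; lmFit, contrasts.fit, eBayes) estimated a mean for every one of the 30 strains (30 residual degrees of freedom), with Benjamini-Hochberg adjustment within each comparison. The pipeline was tested on simulated data. Genes were named by a rule: called genes with both males apart (up to 8 a direction on chromosome 13 by size and 4 by t, 6 elsewhere), called list members, 20 liver genes of the chromosome and those next to the divisions. Nsa2, Tpmt and other genes from alternatives, the chromosome 10 neighbours, the genes called against B6 and the cholesterol genes were chosen after their values were seen. Members and lists were chosen with earlier results of these data known. Since the labels do not say whether males were housed or handled apart, p-values measure only the spread between these males. Alternatives covered the samples fitted, normalization, filter, probe sets, arrays, moderation, minimum difference, B6 as the base and each male.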

Additional observations from a re-analysis of the deposited data

How the results depend on the processing

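Every difference was measured against 30 strains' spread with 2 males per strain, so a call with 1 male left out rests on that male's partner being typical. Of the 21 genes called between C and T, 21 kept their call with a stricter filter, with every probe set, with single arrays and the male as a random block, and with trend and robust moderation. All but Gm7969 kept it without a filter, 11 under quantile normalization and 5 when only C, T, B6 and MSM were fitted. With only C and T fitted 0 kept it. None of the 21 changed sign, and Rps26 and Cyb5r3 had a difference of 0 under quantile normalization. With each male left out 6 of 21 kept their call throughout (Akr1c18, Akr1c12, Tmem14c, Id4, 4833420G17Rik and Rps26).

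In the counts of C against T, chromosome 13 genes higher in C (8) became 2 with 4 strains fitted, 0 with C and T alone, 4 under quantile normalization, 15 with every probe set, 13 with single arrays and 1 with a minimum difference of 0.01, and 3 to 6 with a male left out. Those lower in C (9) became 4 with 4 strains fitted, 0 with C and T alone, 17 with every probe set and 17 with single arrays. With the minimum difference of 0.01, Bloc1s5, Isca1 and Mrps36 dropped out of these 9. Genes elsewhere higher in C (3) became 0 in both smaller fits, 1 under quantile normalization, 6 with every probe set and 0 with the minimum difference, and 1 to 2 with a male left out. Those lower (1) became 0 with C and T alone, under quantile normalization and with the minimum difference, and 18 with single arrays. With every probe set there were 2, the second being another probe set of Cyb5r3. Counts with every probe set, here and in the next paragraph, are of probe sets, so a gene can count more than once. Among genes elsewhere higher in C, single arrays added 4833411C07Rik.

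Chromosome 13 genes called in C against B6 (11) became 4 with 4 strains, 7 under quantile normalization, 20 with single arrays, 4 with the minimum difference and 20 against 27 strains, and 5 to 7 with a male left out. Genes elsewhere (3) became 5 with every probe set, 18 with single arrays, 0 with the minimum difference and 7 against 27 strains, and 0 to 2 with a male left out. Chromosome 13 genes called in T against B6 (7) became 0 with 4 strains, 1 under quantile normalization, 14 with every probe set, 12 with single arrays, 1 with the minimum difference and 14 against 27 strains, and 1 to 2 with a male left out. Genes elsewhere (0) became 4 with single arrays. The single-array fit uses 1 correlation of 0.325 between arrays of a male for all genes, so its p-values may be too small where males differ. The cause was not tested, except that fits with fewer strains have fewer residual degrees of freedom.

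In the gene order, the genes placed came to 80 in C and 90 in T of the 100 also called in MSM against B6, against 69 and 86 with no division, and 343 and 350 of 356 under quantile normalization, where only 14 and 6 were MSM-like. With no division that setting placed 342 and 350, so its counts say nothing on gene order in T and next to nothing in C. With a share of 0.7 the divisions lay after 14 in C and 602 in T, and with 0.3 after 258 and 515. No paired analysis was possible because the males were numbered in accession order and no animal number is shared between strains.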
